A study of Sus scrofa with 24 samples.

Results

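The members are the probe sets for interferons, their receptors, the transcription factors that carry the signal and the genes that interferon switches on, in pig aortic valve tissue that was either left static or stretched. A probe set was a member if its single platform gene symbol began with IFN, IFI, GBP, ISG, OAS, IRF or STAT with a digit, or was a named antiviral gene such as MX1, MX2, DDX58, RSAD2, USP18 and EIF2AK2. This gave 61 of 24123 probe sets and 39 different symbols. Of the 61, 3 were array controls for RSAD2, which left 58 among the 23999 probe sets that were tested. In 42 of them (32 symbols) at least 1 of the 4 group means was 5 log2 or more, and in the other 16 every group mean was under 5. IRF2BP1, a repressor that binds IRF2, and ISG20L2, a nucleolar exonuclease, fit the rule by name only.

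The tissue came from valves of domestic pigs between 12 and 24 months old, bought from an abattoir. From the middle of each aortic valve leaflet a piece of 15 by 10 mm was cut, and the pieces were randomised over 4 groups of 6. In 2 groups the pieces lay still in medium with 10% serum for 24 h at 37 C, and in the other 2 a bioreactor stretched them cyclically in that medium by loops sewn to the short sides. Of the static pieces 6 received no agents and 6 received 5HT (serotonin) plus Fluox, and the stretched pieces were split in the same way; the doses and the degree of stretch were not given in the sources used here. An Affymetrix porcine array was run for every piece's RNA, and values are log2 GCRMA summaries of a probe set. Levels are given as the lowest to the highest of 6 arrays with the median, and arrays are numbered as in the labels within their group. The labels call the arrays biological replicates, but leaflets of 1 valve can lie in different groups, so the p-values measure the spread between pieces.

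Interferons are secreted alarm signals. Type I interferons (alpha, beta and, in pigs, delta) bind the receptor made of IFNAR1 and IFNAR2, and interferon gamma binds a receptor that contains IFNGR1. Both receptors switch on STAT proteins through Janus kinases, and STAT2 joins IRF9 in the complex that turns on antiviral genes such as MX1, OAS1, the IFIT family and ISG15. Factors of the IRF family also work upstream, where IRF3 and IRF7 start the transcription of the interferon genes when a cell senses viral nucleic acid. In valve leaflets both the fibroblast-like interstitial cells and the endothelium that covers them can respond.

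Stretched and static arrays differed in more than the members. The 18S rRNA control had log2 medians of 5.58 (static) and 7.36 (stretched) without agents, and 5.6 and 7.19 with them. The mean of the BioB control had medians of 9.57 and 10.6 without agents, and 9.45 and 11.22 with them. The 18S ranges overlapped only with agents, and the BioB ranges only without agents. Neither control was fitted as a covariate, and the part of both in the results below was not tested. The difference between 3′ and 5′ control probe sets of GAPDH and EF1A, a common gauge of RNA integrity and labelling, was 0.57 to 0.91 log2 without stretch and 0.98 to 3.06 after it in tissue with no agents, and 0.70 to 0.97 against 1.85 to 4.66 with them, with no overlap in either pair. Of 9 fibroblast markers 7 were higher and 1 lower in each comparison, and their summed level was 14.03 to 14.72 log2 in static and 15.26 to 15.99 in stretched tissue (13.92 to 14.55 against 15.90 to 16.06 with agents). Of 13 endothelial markers 10 were lower without agents and 7 with them, with sums of 9.70 to 11.53 against 7.56 to 8.35 (10.98 to 11.65 against 7.42 to 8.10 with agents). CDH5, TEK, ECSCR and VWF, which define endothelium, had means under 4 in both stretched groups, VWF also in agent-treated static tissue (3.92), while PECAM1 (6.56 and 6.12) and ENG (5.64 and 5.97) stayed above 5 after stretch without and with agents. KDR, CLDN5 and EGFL7, with means under 4 throughout, were not called. Of 13 leukocyte and macrophage markers 4 were lower and 2 higher in each comparison, with sums of 9.5 to 11.24 against 8.44 to 9.30 (9.58 to 10.26 against 8.47 to 10.00 with agents), and the T cell markers CD3D, CD3E, CD2, CD4 and CD8A had means under 4 in all groups. All 6 measured cardiac muscle markers had means under 4 as well. In bulk tissue, fewer cells of a type and less RNA per cell cannot be told apart. The part of these shifts in cell markers in the results below was not tested. For the 3′ to 5′ difference, each change was also fitted with it as a covariate, and members whose call did not last are named. Because that difference did not overlap between static and stretched arrays, such a fit can hardly separate it from stretch. A call can be lost there through a wider standard error while the change stays nearly the same. The cause of a lost call or a turned direction was not tested.

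Interferon pathway members that changed with stretch mostly fell. Without agents 4 of 58 members rose and 23 fell at an adjusted p under 0.05 (limma, Benjamini-Hochberg over all tested probe sets), which is 6.90% and 39.7% of the members, beside 29.4% and 23.1% of all tested probe sets. With agents 3 rose and 26 fell, 5.17% and 44.8%, beside 28.3% and 23.9%. Among the 42 members with a mean of at least 5, 2 rose and 19 fell without agents (45.2% lower, beside 35.3% of all such probe sets) and 2 rose and 24 fell with agents (57.1%, beside 39%). Counted by gene, with the probe set of highest mean, 4 genes rose and 16 fell of 39 without agents, and 3 rose and 17 fell with agents, beside 20.2% higher and 32% lower and 21.6% and 33.1% of all 6765 genes counted in that way. Of the 39 symbols, 32 have a probe set with a mean of at least 5. Of all 4780 genes with such a mean, 40.4% fell without agents and 44.1% with them. The share of the 32 that fell is not given here, so the counts by gene are not matched for brightness. The median change of the members was -0.68 log2 without agents and -0.90 with them, and that of all tested probe sets was 0.08 and 0.07. When the arrays were centred on the median of their brighter probe sets, the median of all moved to 0.30 and 0.29 and that of the members to -0.45 and -0.69. On that scale 8 members rose and 18 fell without agents, beside 48.1% and 18.5% of all, and 8 rose and 24 fell with agents, beside 50.1% and 20.3%.

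Groups that did not overlap at all were fewer. Without agents 2 members (IFNA1 and EIF2AK2) had every stretched array above every static one and 8 (13.8%) had every stretched array below, beside 12.2% and 8.36% of all probe sets. With agents the counts were 2 (IFN-DELTA-1 and IFNA1) and 17 (29.3%), beside 23.7% and 18.1%. With the 3′ to 5′ covariate in the fit, 9 of the 27 calls without agents lasted in the same direction (EIF2AK2, 1 probe set of IFI44L, IFNAR1, IFNAR2, IFNGR1, IRF2, IRF3, MX2 and STAT5A). With agents 5 of 29 lasted (1 probe set of IFI44L, IFNAR1, IFNGR1, IRF3 and MX2). In that fit 21.6% and 15.5% of all tested probe sets were called, down from 52.5% and 52.2%.

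**Figure D1:**
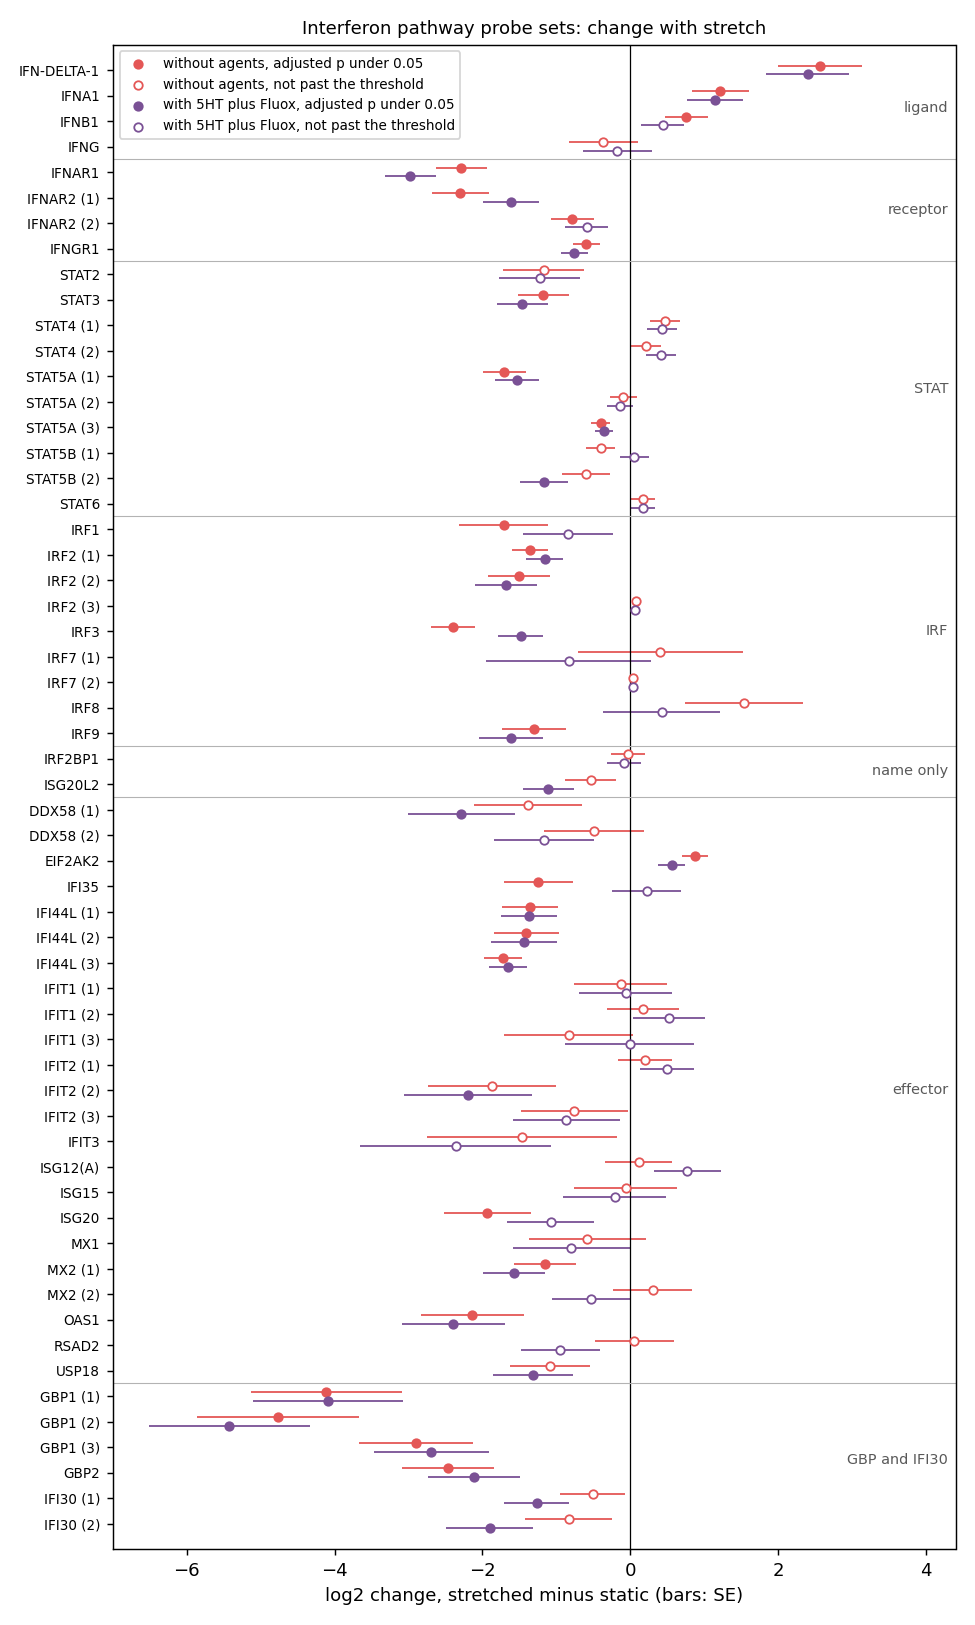
Log2 change of each of the 58 tested member probe sets between stretched and static tissue, without agents (red) and with 5HT plus Fluox (purple), grouped by role; bars are standard errors and filled points have an adjusted p under 0.05. Receptors and guanylate-binding protein genes lie left of 0 in both comparisons, and 3 of the 4 interferon genes lie right of it.

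Of the 4 interferon genes 3 were called higher without agents and 2 with them, and none lower. Of all tested probe sets 29.4% and 28.3% were called higher. IFN-DELTA-1, a type I interferon known from the early pig embryo, rose in both comparisons. It read 2.90 to 6.36 (median 5.60) in static tissue and 5.63 to 9.20 (median 7.56) after stretch without agents, and 5.27 to 6.22 (median 5.68) against 7.30 to 9.13 (median 7.98) with agents. Without agents 5 of the 6 stretched pieces exceeded all static pieces, and with agents all 6 did. The changes were 2.57 (SE 0.56, adjusted p = 0.00120) and 2.40 (SE 0.56, adjusted p = 0.00171), or 5.92-fold and 5.29-fold. Both calls were lost with the covariate (1.77 with adjusted p = 0.0673 and 1.30 with adjusted p = 0.312).

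IFNA1, IFNB1 and IFNG had group means under 5, in the lower part of the scale, where log2 changes may be compressed. The probe set for IFNA1, an interferon alpha, had group means of 3.01 ± 0.40 (SD, n = 6) in static tissue and 4.24 ± 0.91 after stretch without agents, and 3.39 ± 0.16 and 4.54 ± 0.90 with agents. It was higher in 6 of 6 stretched arrays in both comparisons (1.22, SE 0.38, adjusted p = 0.0126 and 1.15, SE 0.38, adjusted p = 0.0162). Under the covariate the values were 0.30 with adjusted p = 0.561 and -0.12 with adjusted p = 0.915, so that the direction turned in the second. IFNB1, interferon beta, passed without agents (0.76, SE 0.29, adjusted p = 0.0349) and not with them (0.44, SE 0.29, adjusted p = 0.201). Its call without agents was lost when any one of 8 arrays was left out, namely static arrays 1, 2, 3, 5 and 6 and stretched arrays 2, 3 and 6 (adjusted p up to 0.0988), after quantile normalization (adjusted p = 0.0798) and with the covariate (0.17 with adjusted p = 0.693). IFNG, interferon gamma, passed in neither comparison (-0.36, SE 0.47, adjusted p = 0.506 and -0.17, SE 0.47, adjusted p = 0.761), and is taken up below with the genes it is known to induce.

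The 3 receptor genes among the members fell in both comparisons. Among all genes with a mean of at least 5, as these 3 have, 40.4% fell without agents and 44.1% with agents. IFNAR1, the first chain of the type I receptor, read 6.25 to 7.75 (median 7.36) in static tissue and 3.46 to 6.60 (median 4.76) after stretch without agents. With agents it read 6.60 to 7.35 (median 7.07) against 3.61 to 4.37 (median 4.09). Only stretched array 1 reached the static range, and with agents the groups did not overlap. The change was -2.28 (SE 0.34, adjusted p = 2.96e-05) without agents, 4.87-fold lower, and -2.97 (SE 0.34, adjusted p = 1.08e-06) with agents, 7.86-fold lower. It kept its call with the covariate (-1.48 with adjusted p = 0.00358 and -1.87 with adjusted p = 0.00262).

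IFNAR2, the other chain of the type I receptor, fell in both comparisons by its brighter probe set. The levels were 8.02 to 9.33 (median 9.0) in static tissue and 5.46 to 7.26 (median 6.55) after stretch without agents, and 7.63 to 9.45 (median 8.41) against 6.40 to 7.47 (median 6.75) with agents. Every stretched array lay below every static array in both pairs. The changes were -2.30 (SE 0.38, adjusted p = 9.76e-05) and -1.61 (SE 0.38, adjusted p = 0.00189). The second call was lost with the covariate, where the change was nearly the same and the SE wider (-1.62, SE 0.58, adjusted p = 0.0650). A dimmer probe set of IFNAR2, with no group mean above 4, changed by -0.79 (SE 0.29, adjusted p = 0.0304) and -0.59 (SE 0.29, adjusted p = 0.0929). Its call was lost without static array 1, 2 or 3 or stretched array 5 or 6 (adjusted p up to 0.0819), after centring (-0.56, adjusted p = 0.0824), when only those 2 groups were fitted (adjusted p = 0.0574) and with the covariate (-0.73 with adjusted p = 0.176).

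IFNGR1, the ligand-binding chain of the interferon gamma receptor, fell by less. It read 9.85 to 10.51 (median 10.11) in static tissue and 8.91 to 9.97 (median 9.61) after stretch without agents, and 10.00 to 10.54 (median 10.29) against 9.18 to 10.29 (median 9.43) with agents. In each pair 5 of 6 stretched arrays lay below every static array. The changes were -0.59 (SE 0.18, adjusted p = 0.0121) and -0.76 (SE 0.18, adjusted p = 0.00217), and both held with the covariate (-0.84 with adjusted p = 0.00975 and -1.10 with adjusted p = 0.00570). Without agents the call depended on scaling: it was lost after centring (-0.37, adjusted p = 0.0753) and after quantile normalization (-0.39, adjusted p = 0.103).

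**Figure D2:**
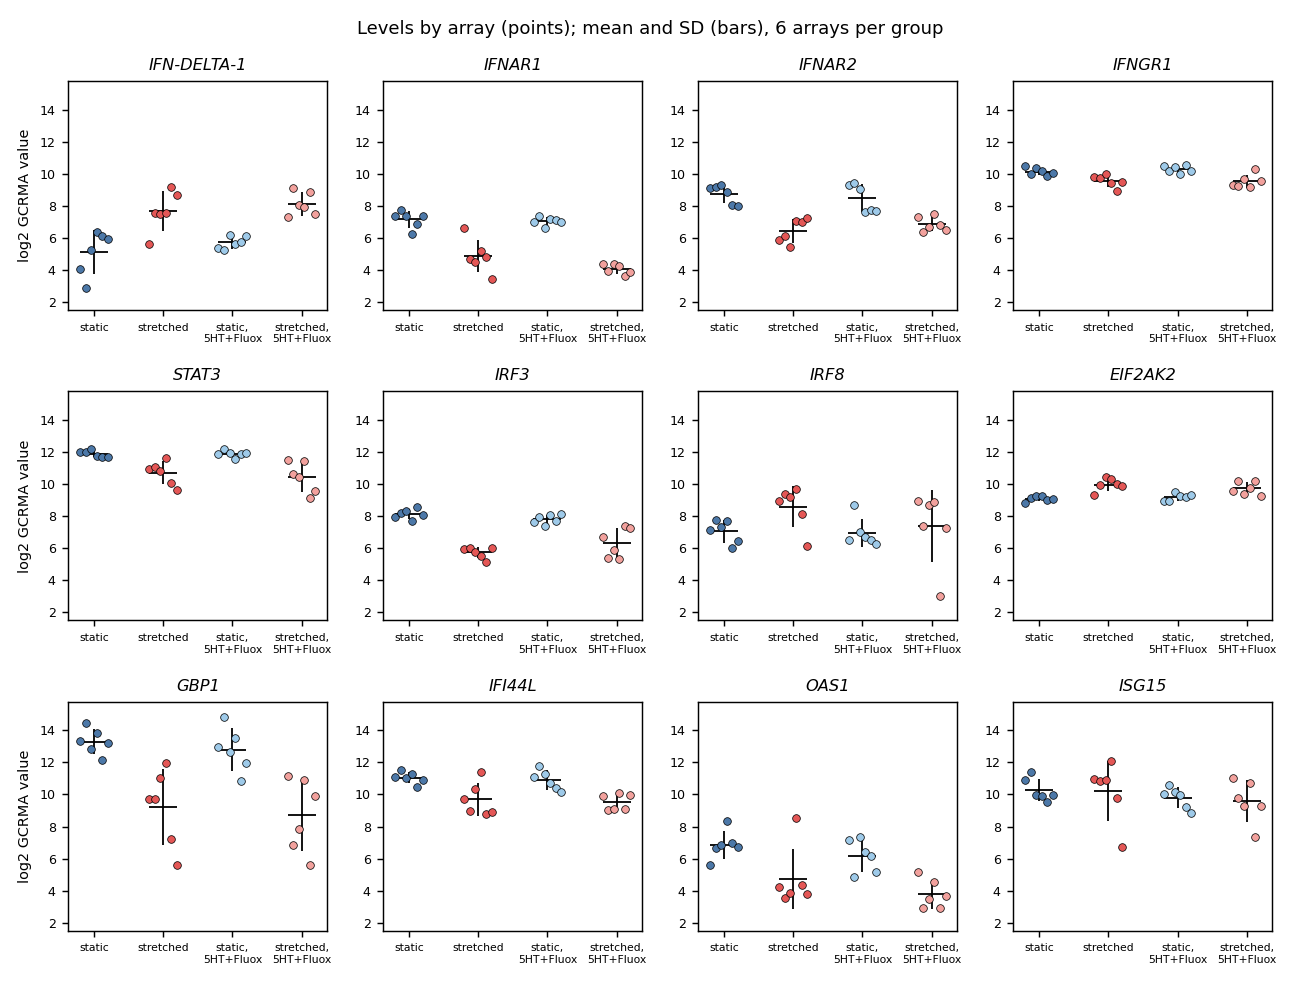
Log2 GCRMA level of 12 members on each of the 24 arrays in the 4 groups (points), with the group mean and SD (bars); the probe set of highest mean stands for each gene. IFNAR1, IFNAR2 and IRF3 separate the stretched from the static arrays except 1 array of IFNAR1, and ISG15 overlaps between static and stretched arrays in both pairs, with a wider spread after stretch.

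Of 10 STAT probe sets 3 fell without agents and 4 with agents, and none rose. These shares of 30% and 40% stand beside 23.1% and 23.9% of all tested probe sets called lower, which is near the rate of the array. STAT3, which relays signals of interleukin 6 and related cytokines as well as interferons, read 11.67 to 12.20 (median 11.89) in static tissue and 9.66 to 11.64 (median 10.89) after stretch without agents. With agents it read 11.57 to 12.20 (median 11.93) against 9.15 to 11.51 (median 10.54). The groups did not overlap in either pair, and the stretched arrays were more spread than the static ones. The changes were -1.18 (SE 0.34, adjusted p = 0.00879) and -1.46 (SE 0.34, adjusted p = 0.00184), and neither lasted with the covariate (-0.24 with adjusted p = 0.567 and -0.16 with adjusted p = 0.849).

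STAT5A, a STAT of cytokine and growth hormone signalling, also fell without overlap. Its brightest probe set read 7.59 to 8.34 (median 7.90) in static tissue and 5.35 to 7.40 (median 6.21) after stretch without agents, and 7.23 to 8.33 (median 7.55) against 5.61 to 6.85 (median 5.97) with agents. The changes were -1.70 (SE 0.29, adjusted p = 0.00014) and -1.53 (SE 0.29, adjusted p = 0.00032), of which the first held with the covariate (-1.29 with adjusted p = 0.0125) and the second did not (-0.96 with adjusted p = 0.131). Of 2 dimmer STAT5A probe sets, 1 was called lower (-0.40 and -0.36, but -0.18 with adjusted p = 0.241 and -0.14 with adjusted p = 0.343 after centring; without agent-treated static array 2 its second call had an adjusted p of 0.0594), and neither call lasted with the covariate; the other was not called (-0.09 and -0.14).

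The closely related STAT5B gave unlike results with its 2 probe sets. One read 5.57 to 6.07 (median 5.83) and 4.31 to 6.11 (median 5.22) without agents, and 5.56 to 6.02 (median 5.68) and 3.29 to 6.00 (median 4.4) with agents, changing by -0.60 (SE 0.33, adjusted p = 0.119) and -1.17 (SE 0.33, adjusted p = 0.00573), of which the second was lost with the covariate (-1.07 with adjusted p = 0.163). The other read 5.43 to 5.94 (median 5.49) and 4.60 to 5.81 (median 5.22), then 5.33 to 5.88 (median 5.67) and 4.98 to 6.24 (median 5.74), with changes of -0.40 (SE 0.19, adjusted p = 0.0854) and 0.05 (SE 0.19, adjusted p = 0.827). The groups of the second probe set overlapped in both comparisons, and without stretched array 5 its first change had an adjusted p of 0.0342.

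STAT2, the STAT particular to the type I response, missed the threshold. It read 8.23 to 9.91 (median 8.91) in static tissue and 6.18 to 9.69 (median 7.79) after stretch without agents, and 8.18 to 9.86 (median 8.48) against 6.14 to 9.0 (median 7.05) with agents. Stretched arrays 3 and 4 and agent-treated stretched arrays 1 and 4 reached the static range, and the others lay below it. The changes were -1.17 (SE 0.55, adjusted p = 0.0760) and -1.23 (SE 0.55, adjusted p = 0.0651). Without stretched array 4 the adjusted p values were 0.0208 and 0.0455, and the second also passed without stretched array 6 (0.0476) or agent-treated stretched array 1 (0.0268) or 4 (0.0254) and with dim probe sets left out (0.0454). With the covariate both changes were near 0 and the second turned (-0.17 with adjusted p = 0.849 and 0.15 with adjusted p = 0.936). STAT4 (2 probe sets) and STAT6 had means under 4 in every group and were not called, with changes from 0.17 to 0.47.

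Among the interferon regulatory factors IRF3, IRF2 and IRF9 fell in both comparisons. All 3 have a mean of at least 5, and 40.4% and 44.1% of all such genes fell. IRF3, which starts interferon beta transcription after nucleic acid sensing, read 7.70 to 8.55 (median 8.14) in static tissue and 5.13 to 6.02 (median 5.88) after stretch without agents. With agents it read 7.41 to 8.11 (median 7.85) against 5.35 to 7.40 (median 6.30). No stretched array reached the static range in either pair, though agent-treated stretched arrays 5 and 6 came close to it. The changes were -2.40 (SE 0.30, adjusted p = 3.73e-06), 5.27-fold lower, and -1.48 (SE 0.30, adjusted p = 0.00049), 2.80-fold lower. Both were at least as large with the covariate (-2.92 with adjusted p = 5.61e-06 and -2.20 with adjusted p = 0.000727).

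IRF2, a factor that competes with IRF1 for the same DNA element, fell by 2 of its 3 probe sets. The brightest read 10.03 to 10.99 (median 10.45) in static tissue and 8.38 to 10.24 (median 8.95) after stretch without agents, and 10.00 to 11.03 (median 10.14) against 8.79 to 9.59 (median 9.09) with agents. Its changes were -1.36 (SE 0.25, adjusted p = 0.000246) and -1.16 (SE 0.25, adjusted p = 0.000859), and the second was lost with the covariate (-1.01 with adjusted p = 0.0744). A dimmer IRF2 probe set changed by -1.51 (SE 0.42, adjusted p = 0.00636) and -1.68 (SE 0.42, adjusted p = 0.00269), and lost both calls with the covariate (-1.40 with adjusted p = 0.0704 and -1.54 with adjusted p = 0.112). The third IRF2 probe set lay at the bottom of the scale (means 1.55 to 1.63) and was not called.

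IRF9, the DNA-binding partner of STAT2, read 8.08 to 9.31 (median 8.95) in static tissue and 5.73 to 8.88 (median 7.80) after stretch without agents, and 8.01 to 8.84 (median 8.46) against 6.10 to 7.76 (median 6.62) with agents. The first pair overlapped and the second did not. The changes were -1.31 (SE 0.43, adjusted p = 0.0173) and -1.61 (SE 0.43, adjusted p = 0.00449), and neither lasted with the covariate (-0.64 with adjusted p = 0.372 and -0.69 with adjusted p = 0.520). The first also missed the threshold without stretched array 5 (-0.96, adjusted p = 0.0520), without the 3 arrays whose 3′ to 5′ difference was widest (adjusted p = 0.0520) and when only those 2 groups were fitted (adjusted p = 0.0631).

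IRF1, which interferon gamma induces, passed in the comparison without agents and not in the one with them. It read 9.65 to 11.93 (median 10.96) against 7.69 to 10.98 (median 9.08), and 9.64 to 12.01 (median 10.23) against 7.24 to 10.90 (median 10.13) with agents. In the agent-treated pair 2 of 6 stretched arrays lay below every static array, and without agents 5 of 6 did. The changes were -1.71 (SE 0.61, adjusted p = 0.0244) and -0.84 (SE 0.61, adjusted p = 0.241), and they were not shown to differ from each other (interaction 0.87, SE 0.86, adjusted p = 0.912). The first call was lost without static array 4 (-1.51, adjusted p = 0.0542), without stretched array 6 (-1.41, adjusted p = 0.0661) and with the covariate (-0.25 with adjusted p = 0.768), and the second change turned positive with the covariate (1.18 with adjusted p = 0.292).

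IRF7 and IRF8 were not called, and single arrays set their values. IRF7, the amplifier of type I interferon production, read 6.65 to 9.31 (median 7.44) in static tissue and 2.60 to 10.41 (median 9.59) after stretch without agents, the broadest range of any member in that group, and 6.52 to 8.76 (median 6.72) against 3.51 to 9.33 (median 6.32) with agents. Its changes were 0.40 (SE 1.11, adjusted p = 0.761) and -0.83 (SE 1.11, adjusted p = 0.533), and they ranged from -0.06 without stretched array 3 to 1.5 without stretched array 6 in the first comparison. A second IRF7 probe set lay at the bottom of the scale (means 1.68 to 1.74).

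IRF8, a factor of macrophages and other myeloid cells, read 5.99 to 7.79 (median 7.24) in static tissue and 6.17 to 9.69 (median 9.09) after stretch without agents, with 5 of the 6 stretched pieces above the whole static range. With agents it read 6.30 to 8.68 (median 6.62) against 3.03 to 8.93 (median 8.05). The lowest stretched values came from array 6 without agents and array 5 with agents, where the 3′ to 5′ difference was widest in each group. The changes were 1.54 (SE 0.80, adjusted p = 0.104) and 0.42 (SE 0.80, adjusted p = 0.659). Without the 3 arrays in which that difference exceeded 2.5 they were 2.02 (adjusted p = 0.00154) and 1.53 (adjusted p = 0.0121), and with the covariate 3.88 with adjusted p = 0.000121 and 3.66 with adjusted p = 0.00129. The first also passed after centring (1.76, adjusted p = 0.0487) and without stretched array 6 (2.02, adjusted p = 0.0412) or agent-treated stretched array 5 (adjusted p = 0.0232). The leukocyte and macrophage markers did not move one way. SPI1 (-2.51 and -2.65 log2 without and with agents), AIF1 (-2.21 and -1.34), ITGB2 (-3.15 and -2.46) and TYROBP (-1.36 and -1.32) were called lower in both comparisons. ITGAM, near the bottom of the scale, was called higher in both (0.21 and 0.17), CD4 without agents (0.11) and PTPRC with agents (0.99). CD163 (-0.01, and 1.90 with adjusted p = 0.0528) and CD14 (-0.38, and 0.80 with adjusted p = 0.148) were not called. Their part in the IRF8 values was not tested.

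The largest falls of the members were those of the guanylate-binding protein genes, which encode large GTPases that interferon gamma induces strongly and that attack intracellular pathogens. All 3 GBP1 probe sets fell in both comparisons. The brightest read 12.14 to 14.49 (median 13.27) in static tissue and 5.61 to 11.94 (median 9.71) after stretch without agents. With agents it read 10.86 to 14.82 (median 12.80) against 5.63 to 11.13 (median 8.88). No stretched array reached the static range without agents, and 2 did with agents. The changes were -4.11 (SE 1.02, adjusted p = 0.00295) and -4.09 (SE 1.02, adjusted p = 0.00270), or 17.3-fold and 17-fold lower. The other 2 GBP1 probe sets changed by -4.76 (SE 1.09, adjusted p = 0.00167) and -2.90 (SE 0.78, adjusted p = 0.00501) without agents and by -5.42 (SE 1.09, adjusted p = 0.000478) and -2.69 (SE 0.78, adjusted p = 0.00723) with agents.

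GBP2, another gene of the family, read 7.96 to 11.63 (median 9.68) in static tissue and 6.37 to 8.65 (median 7.32) after stretch without agents, and 7.53 to 12.17 (median 9.32) against 6.43 to 7.90 (median 7.22) with agents. Its changes were -2.47 (SE 0.62, adjusted p = 0.00334) and -2.12 (SE 0.62, adjusted p = 0.00818). Without agents 5 of 6 stretched arrays lay below every static array, and with agents 4 of 6. None of the 8 GBP calls lasted with the covariate: the GBP1 changes were then between -3.27 and -1.30 with adjusted p from 0.0860 to 0.592, and those of GBP2 -2.07 with adjusted p = 0.0693 and -1.57 with adjusted p = 0.300. The lowest GBP1 levels, 5.61 and 5.63, were those of stretched array 6 and agent-treated stretched array 5, where the 3′ to 5′ difference was 3.06 and 4.66.

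IFNG and the GBP genes were high on the same arrays. IFNG read above 4, a limit chosen after its values were seen, on 3 of the 24 arrays, namely agent-treated static array 2 (5.60), static array 2 (4.90) and static array 4 (4.27), and from 2.58 to 3.85 on the other 21. These 3 arrays held the 3 highest values of GBP1, 14.82, 14.49 and 13.81, in the same order, and did so for each of the 3 GBP1 probe sets. They also held the 3 highest GBP2 values of 12.17, 11.63 and 10.70. CXCL9, a chemokine that interferon gamma induces, had ranks 1, 10 and 2 on them, and IRF1 ranks 1, 4 and 2. On the other 21 arrays, where IFNG lay near the bottom of the scale, GBP1 still ran from 5.61 to 13.53. All 24 points are whole pieces of leaflet, and the 3 arrays are static.

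**Figure D3:**
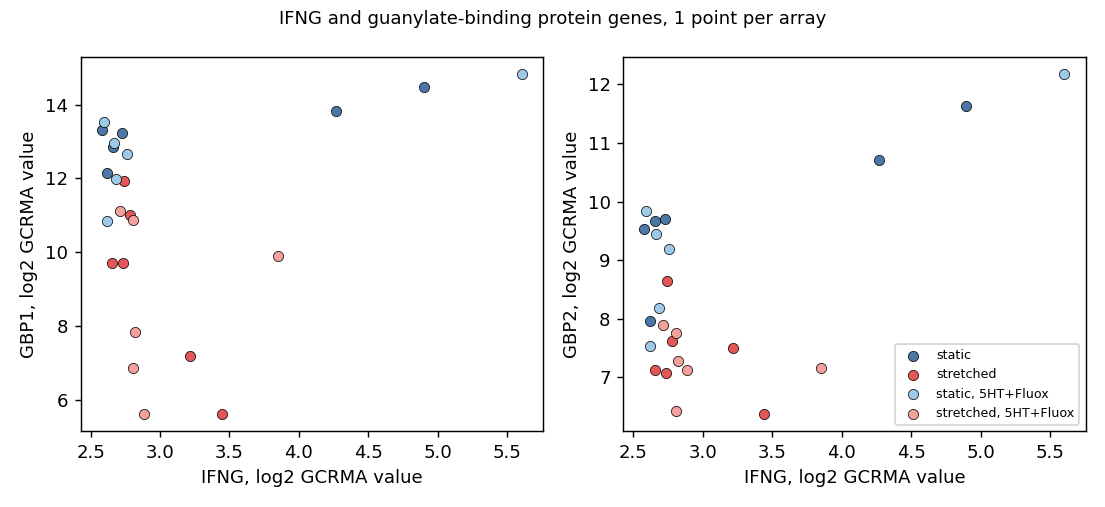
GBP1 (left, brightest probe set) and GBP2 (right) against IFNG on each of the 24 arrays, all as log2 GCRMA values and coloured by group. The 3 arrays with IFNG above 4 carry the 3 highest values of both genes, and the other 21 arrays spread vertically at IFNG values of 2.58 to 3.85.

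IFI30, a lysosomal thiol reductase that prepares antigens in macrophages and dendritic cells, fell by both probe sets with agents. The brighter read 11.64 to 12.88 (median 12.12) and 9.45 to 12.76 (median 12.37) without agents, and 11.90 to 12.72 (median 12.25) against 10.27 to 11.61 (median 11.01) with agents. The changes were -0.51 (SE 0.44, adjusted p = 0.321) and -1.27 (SE 0.44, adjusted p = 0.0212), and those of the other probe set -0.83 (SE 0.59, adjusted p = 0.222) and -1.90 (SE 0.59, adjusted p = 0.0109). With agents no stretched array reached the static range, but neither call lasted with the covariate (-0.14 with adjusted p = 0.924 and -0.15 with adjusted p = 0.937), and the first was also lost without agent-treated stretched array 5 (-1.13, adjusted p = 0.0510).

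Antiviral effectors split into genes that fell, 1 that rose and several that did not pass. Of 23 effector probe sets 7 fell and 1 rose without agents, and 8 fell and 1 rose with agents. The shares that fell, 30.4% and 34.8%, stand beside 23.1% and 23.9% of all tested probe sets, and for probe sets of mean 5 or more 30% and 40% of effectors stand beside 35.3% and 39% of all, so that they lie near the rate of the array. EIF2AK2, the kinase PKR that stops translation when it meets double-stranded RNA, was the one that rose. It read 8.85 to 9.29 (median 9.11) in static tissue and 9.30 to 10.47 (median 9.96) after stretch without agents, and 8.94 to 9.51 (median 9.22) against 9.28 to 10.23 (median 9.69) with agents. The lowest stretched array lay just above the highest static one without agents, and the agent-treated groups overlapped. The changes were 0.88 (SE 0.18, adjusted p = 0.000652) and 0.56 (SE 0.18, adjusted p = 0.0135), and the first held with the covariate while the second did not (0.62 with adjusted p = 0.0436 and 0.20 with adjusted p = 0.686).

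IFI44L, an interferon-induced gene of little known function, fell by each of its 3 probe sets in both comparisons. The brightest read 10.49 to 11.51 (median 11.07) in static tissue and 8.81 to 11.42 (median 9.35) after stretch without agents, and 10.13 to 11.79 (median 10.90) against 9.03 to 10.09 (median 9.51) with agents, where only stretched array 4 without agents reached into the static range. Its changes were -1.36 (SE 0.38, adjusted p = 0.00669) and -1.37 (SE 0.38, adjusted p = 0.00575). The middle probe set changed by -1.40 (SE 0.45, adjusted p = 0.0141) and -1.43 (SE 0.45, adjusted p = 0.0117). The dimmest changed by -1.72 (SE 0.26, adjusted p = 3.66e-05) and -1.65 (SE 0.26, adjusted p = 4.47e-05) without overlap in either pair, its stretched levels of 3.39 to 3.79 lying near the bottom of the scale. Only the dimmest kept its calls with the covariate (-1.77 with adjusted p = 0.000857 and -1.72 with adjusted p = 0.00503). The middle one missed the threshold when only the 2 groups without agents were fitted (adjusted p = 0.0527).

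OAS1, an enzyme that makes the messenger which activates RNase L, read 5.62 to 8.33 (median 6.79) in static tissue and 3.54 to 8.52 (median 4.05) after stretch without agents. With agents it read 4.82 to 7.37 (median 6.28) against 2.90 to 5.14 (median 3.59). Without agents 5 of 6 stretched arrays lay below every static array, and stretched array 4, at 8.52, lay above all of them. The changes were -2.14 (SE 0.70, adjusted p = 0.0160) and -2.40 (SE 0.70, adjusted p = 0.00762), and neither lasted with the covariate (-1.27 with adjusted p = 0.290 and -1.20 with adjusted p = 0.499). The first had an adjusted p of 0.0566 when only its 2 groups were fitted.

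MX2, a GTPase that blocks viruses at the nucleus, fell by its brighter probe set, which read 7.47 to 9.94 (median 8.63) and 6.51 to 8.20 (median 7.52) without agents, and 7.45 to 9.80 (median 8.26) against 5.76 to 7.25 (median 7.15) with agents. The first pair overlapped and the second did not. The changes were -1.16 (SE 0.42, adjusted p = 0.0270) and -1.57 (SE 0.42, adjusted p = 0.00432), and both held with the covariate (-1.64 with adjusted p = 0.0282 and -2.24 with adjusted p = 0.0139). The first was lost after centring (-0.93, adjusted p = 0.0526), after quantile normalization (adjusted p = 0.0862) and without static array 2 or 4 or stretched array 1 (adjusted p = 0.0761, 0.0551 and 0.0569). A dimmer MX2 probe set was not called (0.30, SE 0.53, adjusted p = 0.627 and -0.53, SE 0.53, adjusted p = 0.402).

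DDX58, the RNA sensor RIG-I, was called lower in the agent-treated comparison. Its brighter probe set read 7.23 to 9.93 (median 9.05) and 4.97 to 9.83 (median 7.82) without agents, and 7.20 to 9.29 (median 8.05) against 3.47 to 6.89 (median 6.17) with agents, where the groups did not overlap. The changes were -1.39 (SE 0.73, adjusted p = 0.109) and -2.28 (SE 0.73, adjusted p = 0.0135). The first had an adjusted p of 0.0304 without stretched array 4, and the second was lost with the covariate (-0.03 with adjusted p = 0.991) and without the 3 arrays whose 3′ to 5′ difference was widest (-1.69, adjusted p = 0.0599). The other DDX58 probe set was not called (-0.49, SE 0.68, adjusted p = 0.536 and -1.17, SE 0.68, adjusted p = 0.148), though with only the 2 agent-treated groups in the fit the adjusted p of the second change was 0.0380. Without agents both DDX58 probe sets turned direction with the covariate (0.25 with adjusted p = 0.816 and 0.15 with adjusted p = 0.907).

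ISG20, an RNA exonuclease, and IFI35, which binds the regulator NMI, were called only in the comparison without agents. ISG20 read 2.74 to 6.90 (median 4.29) against 2.25 to 3.09 (median 2.38), and 2.45 to 6.21 (median 2.74) against 2.28 to 2.48 (median 2.40) with agents. All stretched values were near the bottom of the scale, and static array 2 and agent-treated static array 2, at 6.90 and 6.21, were the highest. Its changes were -1.93 (SE 0.59, adjusted p = 0.0110) and -1.07 (SE 0.59, adjusted p = 0.126); the group means stayed under 5, and the first call was lost with the covariate (-1.89 with adjusted p = 0.0837). IFI35 read 7.01 to 8.74 (median 7.30) against 5.11 to 7.40 (median 6.46), and 5.55 to 8.36 (median 6.58) against 5.69 to 7.90 (median 6.98) with agents. Its changes were -1.24 (SE 0.47, adjusted p = 0.0324) and 0.22 (SE 0.47, adjusted p = 0.695), and they were not shown to differ (interaction 1.46, SE 0.66, adjusted p = 0.657). The IFI35 call was lost without static array 1 or 2 or stretched array 1 or 6 (adjusted p from 0.0594 to 0.0860), after centring or quantile normalization (adjusted p = 0.0517 and 0.0704), without the 3 arrays whose 3′ to 5′ difference was widest (adjusted p = 0.0899) and with the covariate (-1.13 with adjusted p = 0.190).

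USP18, a protease that removes ISG15 from proteins and dampens the type I receptor, was just past the threshold with agents. It read 9.21 to 10.71 (median 9.93) and 7.20 to 10.98 (median 8.60) without agents, and 9.33 to 10.29 (median 9.71) against 6.97 to 9.84 (median 8.27) with agents. The changes were -1.08 (SE 0.54, adjusted p = 0.0917) and -1.31 (SE 0.54, adjusted p = 0.0459). The second call was lost when any one of 12 arrays was left out (adjusted p up to 0.122 without agent-treated stretched array 5), namely agent-treated static arrays 1 to 5, agent-treated stretched arrays 2, 3, 5 and 6 and static arrays 1, 3 and 4. It was lost as well after centring (-1.10, adjusted p = 0.0613) or quantile normalization (adjusted p = 0.0950) and without the 3 arrays whose 3′ to 5′ difference was widest (adjusted p = 0.147), and the direction turned with the covariate (0.09 with adjusted p = 0.960). The first passed without stretched array 4 (-1.51, adjusted p = 0.0156).

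IFIT2, of the family that binds foreign RNA ends, depended on the probe set. The brightest read 8.82 to 11.04 (median 9.79) and 8.90 to 11.01 (median 10.02) without agents, and 8.92 to 10.37 (median 9.63) against 9.69 to 10.73 (median 10.06) with agents. Its changes were 0.20 (SE 0.37, adjusted p = 0.650) and 0.50 (SE 0.37, adjusted p = 0.247). The second read 6.00 to 10.47 (median 8.31) and 4.58 to 9.79 (median 6.19), then 5.70 to 9.81 (median 7.89) against 4.35 to 6.86 (median 5.51), and changed by -1.87 (SE 0.86, adjusted p = 0.0719) and -2.20 (SE 0.86, adjusted p = 0.0387). Its call with agents was lost after quantile normalization (-2.08, adjusted p = 0.0570), with the covariate (-1.29 with adjusted p = 0.593), and without agent-treated static array 1, 2, 3 or 4 or agent-treated stretched array 2, 3, 5 or 6 (adjusted p up to 0.0991), and its first change passed without static array 5 (adjusted p = 0.0345) or stretched array 4 (adjusted p = 0.0118). The third IFIT2 probe set was dim and not called (-0.76 and -0.86).

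ISG15, MX1, RSAD2, IFIT1, IFIT3 and ISG12(A), which include the genes most used as a readout of interferon, did not pass in either comparison. ISG15, a ubiquitin-like modifier, read 9.53 to 11.38 (median 9.97) and 6.71 to 12.11 (median 10.86) without agents, and 8.84 to 10.59 (median 10.00) against 7.34 to 11.06 (median 9.54) with agents, with changes of -0.06 (SE 0.70, adjusted p = 0.945) and -0.21 (SE 0.70, adjusted p = 0.805). The sign of both turned under centring (0.16 and 0.0068) and, by more, with the covariate (1.70 with adjusted p = 0.0700 and 2.21 with adjusted p = 0.0541). MX1, a GTPase that traps viral nucleocapsids, read 9.46 to 12.46 (median 10.88) and 6.98 to 12.57 (median 10.98), then 9.14 to 11.44 (median 10.58) against 8.42 to 11.46 (median 9.18), with changes of -0.58 (SE 0.79, adjusted p = 0.530) and -0.80 (SE 0.79, adjusted p = 0.397), which also turned with the covariate (0.72 with adjusted p = 0.571 and 1.01 with adjusted p = 0.62). Without agents, stretched array 4 was the highest of its group for both genes and stretched array 6 the lowest, and the static values lay between them.

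RSAD2, the radical SAM enzyme viperin, read 8.45 to 11.59 (median 10.42) and 9.0 to 11.71 (median 10.49) without agents, and 8.27 to 11.30 (median 9.92) against 8.19 to 9.40 (median 8.82) with agents, with changes of 0.06 (SE 0.54, adjusted p = 0.934) and -0.94 (SE 0.54, adjusted p = 0.141). The array also carries 3 control sets for RSAD2, which were not tested. The one at the 3′ end had group means of 9.42 and 9.34 without agents and 8.92 and 7.90 with agents, static before stretched. The middle one had means of 4.63, 4.24, 3.86 and 3.43 in the same order, and the one at the 5′ end 1.77 to 1.96, at the bottom of the scale.

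IFIT1 had 3 probe sets with changes from -0.83 to 0.17 without agents and from -0.06 to 0.52 with agents. The brightest read 7.82 to 11.21 (median 10.08) and 8.79 to 12.39 (median 9.16) without agents, and 8.07 to 10.93 (median 9.52) against 8.89 to 10.31 (median 9.37) with agents. IFIT3, its partner, read 6.81 to 11.86 (median 9.37) and 4.33 to 12.07 (median 8.31), then 7.04 to 10.49 (median 8.93) against 3.35 to 9.49 (median 6.08), with changes of -1.46 (SE 1.29, adjusted p = 0.331) and -2.36 (SE 1.29, adjusted p = 0.125). ISG12(A), a small interferon-induced membrane protein, read 10.09 to 12.73 (median 11.77) and 11.37 to 12.28 (median 11.54), then 9.28 to 12.12 (median 11.05) against 11.35 to 12.13 (median 11.68), with changes of 0.12 (SE 0.45, adjusted p = 0.832) and 0.77 (SE 0.45, adjusted p = 0.153). With the covariate the IFIT3 changes turned (0.29 with adjusted p = 0.900 and 0.06 with adjusted p = 0.991). IFIT3 had some of the widest ranges of all members in stretched tissue, and an interval of 2 SE around its changes holds both 0 and falls of more than 4 log2. After centring, ISG12(A) was called higher with agents (0.99, adjusted p = 0.0471).

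Levels of the effectors varied more from piece to piece than those of most genes, and most of them varied together. The within-group SD of 19 effector probe sets with an overall mean of at least 5 had a median of 0.96, and 11 of them exceeded the 90th percentile of all 11720 such probe sets (0.93), whose median was 0.56. For the 6 GBP and IFI30 probe sets the median SD was 1.25 and 5 exceeded that percentile. Of 14 effector genes, each by its brightest probe set, 12 were highest on static array 2 within that group, 10 on agent-treated static array 2 and 12 on stretched array 4. Static array 5 was lowest in 11 and agent-treated static array 6 in 9. Among agent-treated stretched arrays, 6 genes were highest on array 4 and 5 on array 1, and 6 were lowest on array 5. No such count over all tested probe sets is given, so the pattern is not shown to be particular to the effectors.

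For some genes a single piece differed more from its own group than the groups differed from each other. IFIT1 read 12.39 on stretched array 4 and at most 10.03 on the other 5 of its group, and OAS1 8.52 and at most 4.37. In the static groups most effectors moved together while the 3′ to 5′ difference stayed between 0.57 and 0.97. In the stretched group without agents, the mean deviation of the 14 genes was 1.81 log2 on array 4, where the 3′ to 5′ difference was 1.63, and -0.12 on array 1, where that difference was narrowest (0.98). It was -0.15 and 0.54 on arrays 2 and 3 (2.18 and 2.42), and -0.82 and -1.26 on arrays 5 and 6 (2.31 and 3.06). The part of that difference in the spread was not tested. EIF2AK2 varied little: its deviations from the group mean stayed within 0.68 log2. Other genes departed from the pattern on some arrays, among them OAS1 and MX2. OAS1 deviated by -0.18 on static array 2 and by -1.36, lowest of its group, on agent-treated static array 2. MX2 deviated by -0.13 on stretched array 4.

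**Figure D4:**
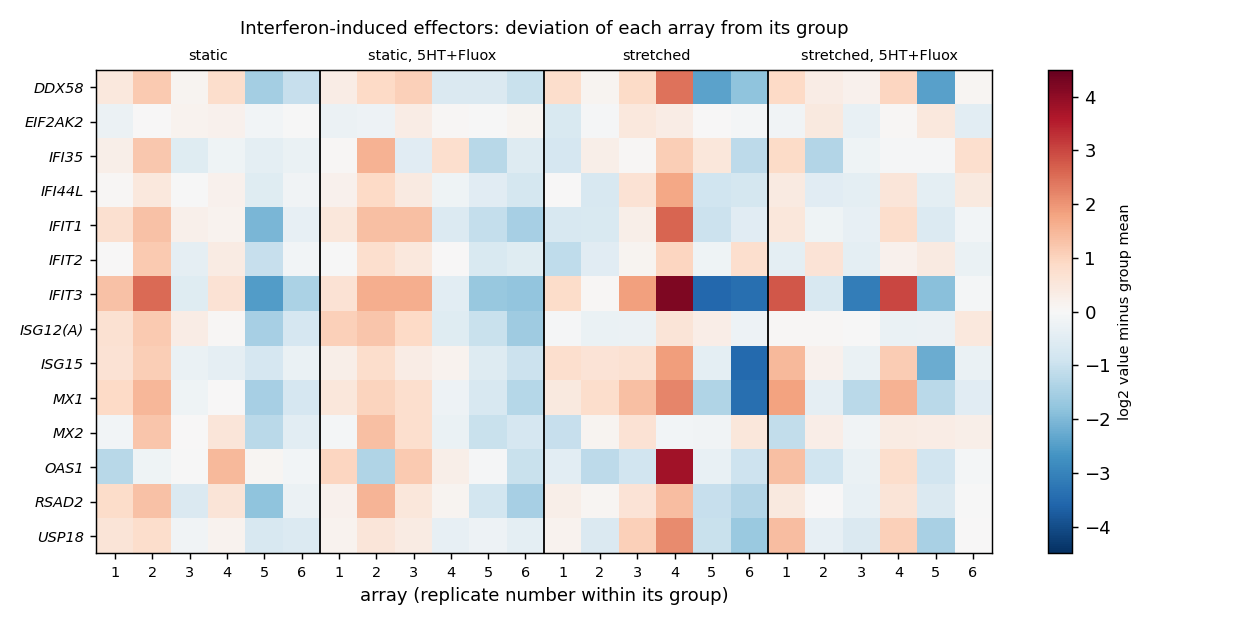
Deviation of 14 interferon-induced effector genes from their group mean (log2, colour) on each of the 24 arrays, with lines between the 4 groups. Columns such as static array 2 and stretched array 4 are high for most genes, and static array 5 and agent-treated static array 6 are low for most.

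Of the 2 genes that are members by name only, ISG20L2 read 8.23 to 8.95 (median 8.63) and 6.47 to 9.21 (median 8.38) without agents, and 8.37 to 8.76 (median 8.56) against 6.39 to 8.05 (median 7.58) with agents. Its changes were -0.53 (SE 0.35, adjusted p = 0.189) and -1.11 (SE 0.35, adjusted p = 0.0122), and in the second pair the groups did not overlap, but the call was lost with the covariate (-0.20 with adjusted p = 0.856). IRF2BP1, with means under 3 in every group, was not called in either comparison (-0.03 and -0.08).

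Neither comparison of agents with no agents called any member. In static tissue 5HT plus Fluox gave 0 calls among the 58 members by limma, beside 0.00417% of all tested probe sets, and 0 members had an unadjusted p under 0.05 (1.76% of all). The members' median change was -0.25 log2, with 47 of 58 lower. That of all tested probe sets was 0.02, with 9866 of 23999 lower. Several of the 58 are probe sets of the same gene. The lowest adjusted p of a member was 0.999893. The changes ran from -0.94 for ISG20 to 0.61 for IFN-DELTA-1, and those of receptor, STAT and IRF genes with a mean of at least 5 from -0.56 to 0.15.

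In stretched tissue 0 members were called as well, beside 0.0583% of all probe sets, while 5 had an unadjusted p under 0.05 (14.8% of all, 7.83% higher and 6.99% lower). Of these, IFNAR1 (-0.81, SE 0.34, adjusted p = 0.264), RSAD2 (-1.49, SE 0.54, adjusted p = 0.197), the dimmer MX2 probe set (-1.45, SE 0.53, adjusted p = 0.201) and the dimmer DDX58 probe set (-1.47, SE 0.68, adjusted p = 0.316) lay lower, and 1 STAT5B probe set lay higher (0.49, SE 0.19, adjusted p = 0.241). The median change was -0.24, with 41 of 58 lower, beside 0.01 and 11333 of 23999 for all tested probe sets. Without stretched array 6, 4 member probe sets were called lower, namely IFNAR1 (-1.10, adjusted p = 0.0348), the dimmer MX2 (-1.81, adjusted p = 0.0372) and both of IFI30 (-1.19 and -1.74, adjusted p = 0.0385 and 0.0349), when 6.86% of all tested probe sets were called.

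The change with stretch was not shown to differ between tissue with and without the agents for any member. The interaction test called 0 of 58, beside 0% of all tested probe sets, and 2 members had an unadjusted p under 0.05 (7.46% of all, 4.81% with a higher value): IRF3 (0.92, SE 0.42, adjusted p = 0.662) and IFI35 (1.46, SE 0.66, adjusted p = 0.657). The difference of the 2 changes ran from -1.24 for IRF7 to 1.46 for IFI35, with standard errors of 1.58 and 0.66. The 2 stretch comparisons use separate arrays, and the comparisons of the agents share arrays with both.

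Other genes of the pathway, from lists that are not members, were mostly lower in stretched tissue. These lists were chosen with earlier results of these data known, so they are no separate check on the members. Of 105 genes listed, 52 had a probe set with a single symbol. Without agents 2 rose and 30 fell, and with agents 5 rose and 30 fell, with median changes of -1.22 and -1.27. The falls are 57.7% of the genes in each comparison, beside 32% and 33.1% of all 6765 genes by their brightest probe set (medians -0.20 and -0.13), and 70.7% and 73.2% of the 41 with a mean of at least 5, beside 40.4% and 44.1%. The rises are 3.85% and 9.62%, beside 20.2% and 21.6%. Neither comparison of the agents, nor the interaction, called any of them. With the 3′ to 5′ covariate in the fit 13 and 9 were lower and 0 higher. The calls of TYK2, JAK1, IL10RB, TLR4, TBK1, TANK, PARP9 and SHISA5 lasted in both comparisons. Those of TLR2, MYD88, SAMHD1, TAPBP and PSME1 lasted without agents only, and that of IRAK1 with agents only. Calls of PTPN2, PTPRC, TRAF6, TLR8, CCL5, WARS, ZC3HAV1, TDRD7, TAP1, PSMB8 and CTSS, described next, did not last.

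Kinases and brakes of receptor signalling came first. Of 10 signalling partners 4 fell without agents, and 5 fell and 1 rose with agents. Of all genes 32% and 33.1% fell, and of those with a mean of at least 5, 40.4% and 44.1%. The Janus kinase TYK2, which sits on IFNAR1, changed by -1.59 (SE 0.22, adjusted p = 1.32e-05) and -0.99 (SE 0.22, adjusted p = 0.00116), and JAK1, which sits on IFNAR2, by -0.89 (SE 0.15, adjusted p = 0.000127) and -1.04 (SE 0.15, adjusted p = 1.98e-05). IL10RB, a receptor chain shared with the lambda interferons, fell to the bottom of the scale (-2.78, SE 0.22, adjusted p = 1.11e-08 and -2.45, SE 0.22, adjusted p = 3.93e-08, stretched means 2.30 and 2.37), so that its fall may be compressed. The phosphatase PTPN2 changed by -0.92 (SE 0.21, adjusted p = 0.00150) and -1.18 (SE 0.21, adjusted p = 0.00013). PTPRC, the leukocyte phosphatase CD45, was the 1 that rose with agents (0.32, SE 0.29, adjusted p = 0.347 and 0.99, SE 0.29, adjusted p = 0.00838). Its means with agents were low, 3.05 in static and 4.03 in stretched tissue.

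Of 11 genes that sense pathogens and start interferon production, 6 fell and 1 rose without agents, and 5 fell and 2 rose with agents. Among all genes 32% and 33.1% fell. TLR4, the receptor for bacterial endotoxin, changed by -3.25 (SE 0.49, adjusted p = 3.28e-05) and -3.27 (SE 0.49, adjusted p = 2.41e-05), and TLR2 by -2.11 (SE 0.36, adjusted p = 0.000125) and -1.26 (SE 0.36, adjusted p = 0.00683). TBK1, the kinase that activates IRF3, changed by -1.99 (SE 0.32, adjusted p = 6.53e-05) and -2.93 (SE 0.32, adjusted p = 5.81e-07), and its scaffold TANK by -1.59 (SE 0.32, adjusted p = 0.00051) and -2.19 (SE 0.32, adjusted p = 1.6e-05). IRAK1 changed by -1.22 (SE 0.36, adjusted p = 0.00873) and -1.91 (SE 0.36, adjusted p = 0.000234). The ubiquitin ligase TRAF6 rose in both (2.01, SE 0.51, adjusted p = 0.00332 and 1.59, SE 0.51, adjusted p = 0.0130), and the RNA receptor TLR8 with agents (0.54, SE 0.21, adjusted p = 0.0364). TLR8 lay near the bottom of the scale, with means of 2.26 in static and 2.80 in stretched tissue with agents.

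Of 22 other interferon-induced genes 13 fell in each comparison, and 1 and 2 rose, beside 32% and 33.1% of all genes that fell. The chemokine CCL5 changed by -3.09 (SE 0.74, adjusted p = 0.00239) and -4.36 (SE 0.74, adjusted p = 9.35e-05). PARP9 changed by -2.84 (SE 0.63, adjusted p = 0.00134) and -3.58 (SE 0.63, adjusted p = 0.000134), and the tryptophan tRNA synthetase WARS by -1.76 (SE 0.66, adjusted p = 0.0310) and -3.23 (SE 0.66, adjusted p = 0.000514). SHISA5 (-1.74, SE 0.27, adjusted p = 3.62e-05 and -1.45, SE 0.27, adjusted p = 0.000201) and SAMHD1, which depletes nucleotides that viruses need (-1.59, SE 0.41, adjusted p = 0.00423 and -1.51, SE 0.41, adjusted p = 0.00531), fell in both, SHISA5 with the lowest p of this list without agents. ZC3HAV1, which binds viral RNA, rose by little near the bottom of the scale (0.15, SE 0.04, adjusted p = 0.00804 and 0.13, SE 0.04, adjusted p = 0.0192), and TDRD7 rose with agents (0.52, SE 0.20, adjusted p = 0.0362). No group mean of either gene reached 5.

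The antigen processing list held the highest share of falls, 7 of 9 measured genes in each comparison and 0 rises, with medians of -1.90 and -2.19. Of all genes with a mean of at least 5, as these 9 have, 40.4% and 44.1% fell. TAPBP and TAP1, which load peptides onto class I molecules, changed by -3.16 (SE 0.57, adjusted p = 0.000213) and -2.29 (SE 0.57, adjusted p = 0.00273) and by -2.51 (SE 0.60, adjusted p = 0.00242) and -2.64 (SE 0.60, adjusted p = 0.00142). The immunoproteasome subunit PSMB8 changed by -2.85 (SE 0.61, adjusted p = 0.00103) and -2.57 (SE 0.61, adjusted p = 0.00197), and the proteasome activator PSME1 by -2.60 (SE 0.45, adjusted p = 0.000153) and -2.19 (SE 0.45, adjusted p = 0.000634). Cathepsin S, CTSS, which trims the class II chaperone, changed by -1.43 (SE 0.44, adjusted p = 0.0111) and -2.42 (SE 0.44, adjusted p = 0.000169). The 2 genes of this list that were not called are named after their values were seen. The light chain B2M of the same class I molecules did not pass (-0.03, SE 0.08, adjusted p = 0.758 and -0.09, SE 0.08, adjusted p = 0.371), with means of 13.94 to 14.02, nor did CD74 of class II (-0.79, SE 0.58, adjusted p = 0.240 and -0.52, SE 0.58, adjusted p = 0.446).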

How the data were processed

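The authors deposited log2 values for 24 Affymetrix porcine arrays, made with GCRMA in Partek per the submitters' processing notes (versions not given in the sources used here). GCRMA corrects background by probe sequence, quantile-normalizes and summarises probes, so values near the bottom of the scale are compressed and small common shifts may be removed. Groups came from the titles. Here 124 control probe sets were set aside, and limma 3.58.1 in R 4.3.3 fitted 4 group means to the other 23999 with 5 contrasts and Benjamini-Hochberg adjustment, a call being an adjusted p under 0.05. Probe sets were named by the platform table: 10069 had 1 symbol, 198 several and 13732 none. None of the last 2 kinds was a member. Those with several symbols that hold an interferon gene symbol are described only under the other observations. The number of arrays limits the precision. Up to 10 rises and 10 falls per contrast, all receptor, STAT and IRF genes, and up to 4 rises and 4 falls per pathway list by p were to be named. The members and lists were chosen with earlier results of these data known. The highest correlation between arrays was 0.996 and none were identical. Alternatives were centring, quantile normalization, a 3′ to 5′ covariate, leaving out wide or dim items or single arrays, and a replicate block. The script was tested on simulated data. The authors' deposited table of comparisons was not used.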

Additional observations from a re-analysis of the deposited data

Results flagged for a closer look

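In 10 of 168 sets of 6 arrays, 1 array stood apart from the rest by Dixon's test, where chance alone picks out about 1 in 20. Stretched array 4 without agents gave 4 of them. IFIT1 read 12.39, 12.11 and 11.18 there on its 3 probe sets, with next values of 10.03, 9.68 and 7.08, and OAS1 read 8.52 with a next value of 4.37. IRF8 stood apart on agent-treated static array 2 (8.68, next 7.01) and, at the low end, on agent-treated stretched array 5 (3.03, next 7.29). The brighter DDX58 probe set was low on that same array 5 (3.47, next 5.99). The other DDX58 probe set was high on agent-treated stretched array 1 (5.19, next 4.64), and MX2 was low there (5.76, next 6.70). The dimmest IFI44L probe set was high on stretched array 6 without agents (3.79, next 3.51).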

How the results depend on the processing

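Of 93 changes of named members, 29 kept direction and side of the threshold with the 3′ to 5′ covariate. A call was lost without a turn in 40, 2 gained one and 22 turned. Among those that turned, IFNA1 and USP18 with agents lost their calls as well. Under centring 79 kept both, under quantile normalization 83, without the 3 arrays of widest difference 79, with only the groups compared 88, and with trend and robust variances 93. Members called lower numbered 8 without agents and 5 with them under the covariate, beside 12.7% and 8.38% of all tested probe sets. By 1 probe set per symbol 17 were lower with agents. Members called higher numbered 2 and 1 under the covariate, 8 and 8 after centring, 2 without agents with dim probe sets left out, and 5 with agents without the 3 arrays or with only the groups compared. Pathway list genes called lower were 13 and 9 under the covariate. Those called higher were 0 and 0 under the covariate, 6 and 9 after centring, 1 and 3 without dim probe sets, 1 and 2 after quantile normalization, and 4 without agents under robust variances. The cause was not tested, beyond what each construction shows.

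Directions that turned without agents under the covariate were those of DDX58 (0.25 and 0.15), IFI30 (0.30 and 0.44), IFIT1 (0.19 and 0.38), IFIT2 (-0.19), IFIT3 (0.29), ISG15 (1.70), ISG20L2 (0.12) and MX1 (0.72). With agents they were IFIT1 (1.41 and 0.64), IFIT2 (-0.033), IFIT3 (0.057), IFNA1 (-0.12), IRF1 (1.18), IRF7 (2.17), ISG15 (2.21), MX1 (1.01), STAT2 (0.15) and USP18 (0.093). After centring, ISG15 turned to 0.16 and 0.0068, and IFIT1 to 0.10 without agents and to 0.21 and 0.16 with them. After quantile normalization ISG15 was 0.084 and IFIT1 0.043 without agents, and IFIT1 was 0.18 and 0.20 with them. Without the 3 arrays ISG15 was 0.64 and 0.42, MX1 0.10 without agents, and IFIT1 0.26 and 0.13 with agents.

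Leaving out 1 array at a time gave 20 to 27 members lower without agents and 23 to 27 with them. In stretched tissue the agents gave 0 to 4 members and 0 to 4 pathway list genes called lower. Pathway list genes called higher ranged from 2 to 4 without agents and from 3 to 6 with them. Directions turned for changes that were not called: without agents IFIT1 (-0.65 to 0.14 and -0.30 to 0.42), IFIT2 (-0.011 to 0.43), IRF7 (-0.058 to 1.5), ISG12(A) (-0.18 to 0.35), ISG15 (-0.44 to 0.64), MX1 (-1.02 to 0.10) and RSAD2 (-0.31 to 0.32), and with agents IFI35 (-0.028 to 0.53), IFIT1 (-0.43 to 0.35 and -0.36 to 0.21), ISG15 (-0.51 to 0.24) and STAT5B (-0.054 to 0.20).

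The arrays carry replicate numbers, but same-numbered arrays were not shown to be paired: 17 of 36 such pairs had deviations correlated above 0.1 (range -0.37 to 0.59), beside 52 of 180 pairs with different numbers, and in 11 of 36 comparisons an array correlated best with its own number among 6, which is a hint from the data and not from the design. With the replicate block 26 and 28 members were lower and 4 and 3 higher. No call was lost, and 5 were gained: STAT2 in both comparisons (adjusted p = 0.0408 and 0.0325), DDX58 (-1.39, adjusted p = 0.0206) and IFIT2 (-1.87, adjusted p = 0.0361) without agents, and RSAD2 (-0.94, adjusted p = 0.0414) with agents. Dim probe sets limit what their changes can show.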

Other observations

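A probe set that the platform assigns to both IFN-DELTA-2 and IFN-DELTA-1 was no member, since its symbol is not single. It changed by 1.60 (SE 0.53, adjusted p = 0.0173) without agents and by 1.40 (SE 0.53, adjusted p = 0.0314) with them, and all 6 stretched pieces exceeded all static ones in both pairs. Its means were 3.18 static and 4.78 stretched without agents, and 3.63 and 5.03 with agents. Of 2 probe sets shared by LOC100519082 and IFITM3, a membrane protein that blocks virus entry, the brighter changed by -1.01 (adjusted p = 0.113) and -0.69 (adjusted p = 0.279), and the other lay at the bottom of the scale (0.13, adjusted p = 0.0274, and 0.08, adjusted p = 0.167).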
